A study of Mus musculus with 9 samples.

Results

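Lysophosphatidic acid (LPA) and sphingosine 1-phosphate (S1P) are signalling lipids that act through G protein-coupled receptors on the cell surface. The description covers 9 genes of their production, recognition and breakdown: the LPA-producing enzyme Enpp2, the sphingosine kinases Sphk1 and Sphk2, the LPA receptor Lpar1, the S1P receptors S1pr1, S1pr2, S1pr3 and S1pr5, and the S1P lyase Sgpl1. They were chosen by name, with the older array symbols Edg2 for Lpar1 and Edg1, Edg5, Edg3 and Edg8 for S1pr1, S1pr2, S1pr3 and S1pr5. They are 9 of 27666 named genes and 16 of 41174 probes on the array, and all 9 were among the 24890 genes that passed the filter on dim probes. The choice was made with levels on these same arrays in view, among them a low level of S1pr5 in hippocampal Sox2-GFP cells. The values of the 9 genes are therefore a description. Calls of these genes by the fit over all genes are given only as counts beside the background, and nothing is read from them.

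Messenger RNA was measured in cells sorted by fluorescence from the brains of reporter mice aged 6 to 8 weeks, on 9 Agilent arrays read in 1 colour. The groups, of 3 arrays each, were Sox2-GFP cells from the subventricular zone (SVZ), which lines the lateral ventricle and holds neural stem cells, Sox2-GFP cells of the hippocampus and DCX-DsRed cells of the hippocampus. Sox2-GFP mice make green fluorescent protein under the Sox2 promoter, active in neural stem cells and also in astrocytes, and DCX-DsRed mice make a red one under the promoter of Dcx, whose microtubule-binding product marks newborn neurons. All groups came from transgenic reporter animals, and the labels name no drug or other treatment. Each experiment used tissue of 10 pooled dissections, and each array carried amplified RNA of 1000 cells. The labels do not say whether replicates A, B and C of a group came from separate pools, so the spread between them may be technical.

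Enpp2 encodes autotaxin, a secreted enzyme that releases LPA from lysophosphatidylcholine and is abundant in choroid plexus and in oligodendrocytes. Sphk1 and Sphk2 phosphorylate sphingosine to S1P, and Sgpl1 cleaves S1P irreversibly in the endoplasmic reticulum. In the brain, S1pr5 and Lpar1 are known from oligodendrocytes, which form myelin, and S1pr1 from astrocytes and blood vessels.

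S1pr5 and Lpar1 had their highest levels on the same arrays, those of DCX-DsRed cells, and the 250 bases before their annotated starts are shown for that reason. They come from RefSeq (GRCm38.p6) and are written 5′ to 3′ on the gene's strand. Of the 9 genes, 7 had an entry, with 14 windows in all, and Enpp2 and S1pr1 had none. S1pr5 lies on chromosome 9 (window chr9:21248444-21248693, minus strand) and Lpar1 on chromosome 4 (windows chr4:58553492-58553741 and chr4:58499404-58499653, minus strand).
S1pr5: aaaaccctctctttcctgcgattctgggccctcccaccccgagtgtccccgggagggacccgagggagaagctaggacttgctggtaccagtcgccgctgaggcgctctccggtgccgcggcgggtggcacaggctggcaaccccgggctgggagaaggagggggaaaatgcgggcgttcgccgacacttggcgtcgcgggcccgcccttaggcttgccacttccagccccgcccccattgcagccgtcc
Lpar1, outer start: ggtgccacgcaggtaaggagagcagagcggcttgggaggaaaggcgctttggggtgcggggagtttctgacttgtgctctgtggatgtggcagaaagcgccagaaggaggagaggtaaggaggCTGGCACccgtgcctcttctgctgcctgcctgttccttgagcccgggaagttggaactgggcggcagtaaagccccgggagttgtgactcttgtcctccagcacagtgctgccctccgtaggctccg
Lpar1, inner start: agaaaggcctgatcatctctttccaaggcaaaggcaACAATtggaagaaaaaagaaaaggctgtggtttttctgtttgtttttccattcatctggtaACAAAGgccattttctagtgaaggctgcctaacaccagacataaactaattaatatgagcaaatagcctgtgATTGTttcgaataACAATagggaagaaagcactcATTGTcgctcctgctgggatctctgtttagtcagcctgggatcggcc
Capitals mark matches on either strand to CTGGCAC, a form of the motif of MYRF, a transcription factor of myelinating oligodendrocytes, or to ACAAAG or ACAAT, which SOX factors bind. The outer window of Lpar1 held 1 match to CTGGCAC, which 4.19% of all 32851 promoter windows hold. The inner window held 1 match to ACAAAG and 4 to ACAAT, found in 16.5% and 27.7% of all windows, and no matches overlapped. A middle window of Lpar1, which overlaps the outer one and is not printed, held 1 match to ACAAAG. S1pr2 held 1 match to ACAAAG and Sphk1 1 to ACAAT. In S1pr5 none of these 3 forms was found. These 3 forms were settled on after the windows had been read. A further form of the MYRF motif, CTGGTAC, was added only after it had been seen in the S1pr5 window, so 4 forms were tried in all. CTGGTAC matched S1pr5 at 2 overlapping positions, 1 on each strand, and is left in lower case; it occurs in 1.83% of all windows and in no printed window of Lpar1. A match is a description of the letters and not a binding site, and a form picked from the sequence it was seen in is no evidence about the factor.

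Levels are log2 signal minus the array's own 75th percentile, so that 0 is that percentile and 1 unit is a factor of 2, and levels of different genes are not compared. Well above background were 80.4% to 88.2% of the probes on an array, and no probe was saturated. Hippocampal Sox2-GFP replicate C stood apart: across genes it correlated at r = 0.816 and 0.783 with replicates A and B, which correlated with each other at 0.919. Replicates A and B shared slide 2 and C lay on slide 3, so within this group array and slide cannot be told apart. Slide 2 held no other group, so values of this group with slide as a block or within slide 3 rest on replicate C. Neither Sox2 nor Dcx mRNA tracked the reporter used for sorting. Sox2 averaged 1.76 ± 0.74 in SVZ Sox2-GFP, 0.30 ± 1.08 in hippocampal Sox2-GFP and 1.57 ± 0.23 in hippocampal DCX-DsRed cells (SD, n = 3 each). Dcx averaged 1.08 ± 2.99, -1.28 ± 1.41 and -0.27 ± 1.36 in those groups. Of 12 listed markers of immature neurons, 9 passed the filter, and none differed between hippocampal Sox2-GFP and DCX-DsRed cells by limma at an adjusted p under 0.05, although their median difference was -1.01, beside -0.08 over all genes. In 3 of the 9, picked after their values were seen, the hippocampal groups did not overlap and hippocampal Sox2-GFP cells were the lower: Prox1 (-2.17, limma adjusted p = 0.0567), Ncam1 (-2.33, limma adjusted p = 0.0903) and Calb2 (-2.58, limma adjusted p = 0.0704). Of all genes, 13.3% did not overlap on that side. The remaining markers of the list overlapped, Dcx and Sox11 among them. Between SVZ Sox2-GFP and DCX-DsRed cells the median difference of the list was 0.97, but its genes did not share a direction. Dcx, Tubb3, Sox11, Stmn2 and Igfbpl1 averaged lower in DCX-DsRed cells, and each overlapped. Prox1 (means 0.67 and 2.35), Ncam1 (3.51 and 4.03) and Calb2 (-3.88 and -0.94) were higher in DCX-DsRed cells without overlap, and Tbr1 averaged higher with overlap. The list medians per array overlapped too, with SVZ replicate C at -1.68. Markers of myelinating oligodendrocytes were high on the DCX-DsRed arrays, with medians over 18 genes of 0.11, 0.39 and -2.36 on hippocampal Sox2-GFP replicates A, B and C, against 3.46, 3.28 and 3.78 on hippocampal DCX-DsRed A, B and C. In bulk samples, fewer cells of a type and less RNA per cell cannot be told apart.

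Enpp2 was bright in both hippocampal groups and dimmer in the SVZ. Its level was 1.70, 2.33 and 1.41 on SVZ Sox2-GFP replicates A, B and C. On hippocampal Sox2-GFP replicates A, B and C it was 5.88, 5.71 and 6.72, and on hippocampal DCX-DsRed A, B and C it was 4.60, 4.63 and 5.08. No group overlapped another, in the order hippocampal Sox2-GFP, DCX-DsRed, SVZ from high to low. SVZ Sox2-GFP cells were 19.5-fold lower than hippocampal Sox2-GFP cells (log2 difference -4.29, SE 0.40), or 30.0-fold with the mean of its probes, and 7.78-fold lower than DCX-DsRed cells (-2.96, SE 0.40). Hippocampal Sox2-GFP cells were 2.51-fold higher than DCX-DsRed cells (1.33, SE 0.40). The second Enpp2 probe differed in the same directions, by -5.52, -3.99 and 1.53. Markers of choroid plexus, which produces cerebrospinal fluid, were also high on the hippocampal Sox2-GFP arrays, where 10 of 13 rose relative to DCX-DsRed cells by limma (median difference 5.20). The median of 13 of them was -1.69, -2.40 and -2.32 in the SVZ group, 1.68, 0.87 and 3.11 in hippocampal Sox2-GFP cells and -2.93, -2.90 and -3.30 in DCX-DsRed cells. The log2 of their summed level ranged from 1.36 to 1.99, from 5.80 to 7.60 and from 1.33 to 1.83 in these groups, and 1 marker was above background on no DCX-DsRed array. Enpp2 stood 2.96 log2 units lower in the SVZ group than in DCX-DsRed cells, while the median difference of the choroid plexus markers between these groups was -0.05. Over the 9 arrays Enpp2 correlated at r = 0.61 with the median of the choroid plexus markers, at 0.88 with that of 11 microglia markers and at 0.79 with that of 10 meningeal fibroblast markers, given as a description. With the medians of the oligodendrocyte lists r was -0.12 (myelinating), 0.37 (newly formed) and 0.03 (precursor). The microglia median was -1.10, -1.39 and -1.48 in SVZ Sox2-GFP, -0.79, -0.95 and -0.81 in hippocampal Sox2-GFP and -1.06, -1.06 and -0.98 in DCX-DsRed cells. Its summed level (log2) ranged from 2.63 to 2.83, from 2.95 to 3.48 and from 2.95 to 3.16 in these groups, and 0 of the 11 were called in any comparison. The meningeal fibroblast median was -1.91, -2.54 and -2.66 in SVZ Sox2-GFP, -1.20, -1.38 and -0.78 in hippocampal Sox2-GFP and -2.04, -2.29 and -2.07 in DCX-DsRed cells. The summed level (log2) of that list ranged from 1.90 to 2.34, from 4.63 to 6.22 and from 1.52 to 2.20, and 2 of its markers were above background on no DCX-DsRed array. Of these 10, 2 rose in hippocampal Sox2-GFP relative to DCX-DsRed cells and 1 fell in SVZ relative to hippocampal Sox2-GFP cells, where 6 of the 13 choroid plexus markers fell as well. The part of any of these cells in the Enpp2 levels was not tested.

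Sphk1, by the probe that stands for the gene, lay between -1.92 and -0.67 on all 9 arrays. Its group means by that probe were -1.67 ± 0.17 in SVZ Sox2-GFP, -1.34 ± 0.63 in hippocampal Sox2-GFP and -1.36 ± 0.31 in DCX-DsRed cells (SD, n = 3 each), and no group differed from another by as much as 1 SE (0.39), although the narrow SVZ values lay just below those of DCX-DsRed cells without overlap. Its second probe varied more, between -3.46 and 0.02, and differed by 0.78 between hippocampal Sox2-GFP and DCX-DsRed cells, by -1.18 between SVZ and hippocampal Sox2-GFP cells and by -0.40 between SVZ Sox2-GFP and DCX-DsRed cells. Sphk2 was 0.91, -1.14 and 1.89 on SVZ Sox2-GFP replicates A, B and C, so that this group overlapped both others. It was 0.17, 0.55 and 0.33 on hippocampal Sox2-GFP replicates A, B and C, against -0.35, -0.61 and -1.52 on hippocampal DCX-DsRed A, B and C, and these groups did not overlap. The difference was 1.18 (SE 0.72, 2.27-fold), and 1.85 within slide 3, where each hippocampal group rests on replicate C. Between SVZ Sox2-GFP and DCX-DsRed cells Sphk2 differed by 1.38 (SE 0.72), by 0.71 without SVZ replicate C and by 2.23 without SVZ replicate B.

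**Figure D1:**
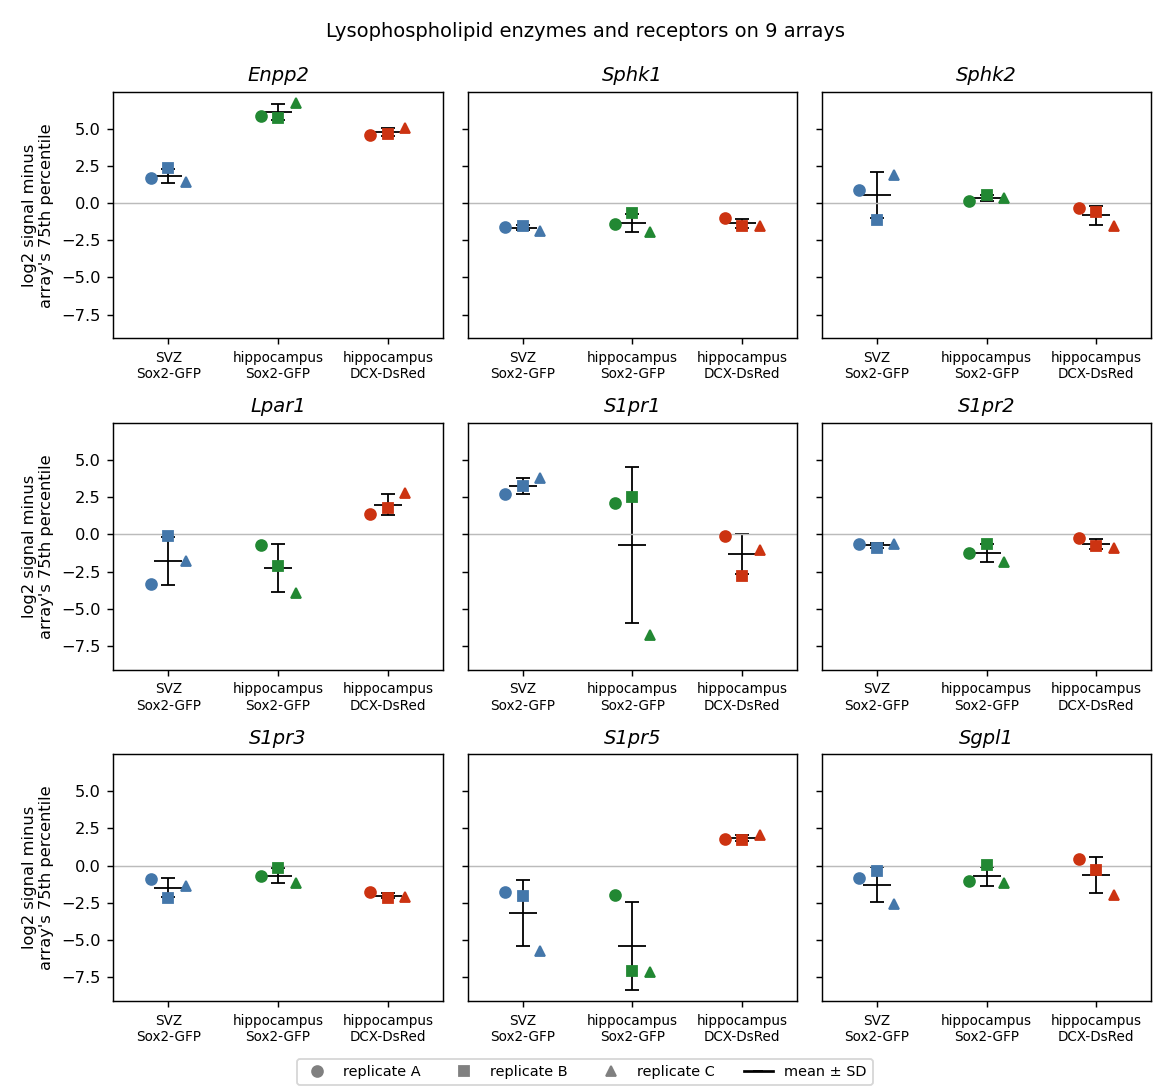
Level of each of the 9 genes (log2 signal minus the array's 75th percentile) on every array, by group; symbols are replicates A, B and C, and black marks are the mean ± SD of 3 arrays. S1pr5 and Lpar1 were highest on the 3 DCX-DsRed arrays, Enpp2 was lowest on the 3 SVZ arrays, and S1pr1 stood far from its group on hippocampal Sox2-GFP replicate C, at -6.79.

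S1pr5, a receptor known from oligodendrocytes, was high in DCX-DsRed cells. It was -1.79, -2.04 and -5.71 on SVZ Sox2-GFP replicates A, B and C. It was -2.0, -7.08 and -7.13 on hippocampal Sox2-GFP replicates A, B and C, where only 1 of the 3 arrays was well above background, and 1.80, 1.69 and 2.05 on hippocampal DCX-DsRed A, B and C. All DCX-DsRed arrays lay above all others, and the Sox2-GFP groups overlapped. Hippocampal Sox2-GFP cells were 152-fold lower than DCX-DsRed cells (log2 difference -7.25, SE 1.50), a size that rests on signals near background. Without hippocampal Sox2-GFP replicate A the fold was 496, without B 85.2 and without C 83.9. With slide as a block the difference was -8.38, within slide 3 it was -9.18, and with normexp background correction it was -4.94. SVZ Sox2-GFP cells were 32.7-fold lower than DCX-DsRed cells (-5.03, SE 1.50), 13.6-fold lower without SVZ replicate C, 53.0-fold lower without SVZ replicate A and 48.5-fold lower without SVZ replicate B. With normexp background correction they were 17.7-fold lower. Within slide 1 that difference was -3.54 and within slide 3 it was -5.93.

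Lpar1 had a like order of groups. It was -3.37, -0.12 and -1.81 on SVZ Sox2-GFP replicates A, B and C, -0.74, -2.16 and -3.93 on hippocampal Sox2-GFP replicates A, B and C, and 1.37, 1.80 and 2.79 on hippocampal DCX-DsRed A, B and C. The DCX-DsRed arrays again lay above all others, and the Sox2-GFP groups overlapped. Hippocampal Sox2-GFP cells were 19.2-fold lower than DCX-DsRed cells (-4.26, SE 0.99), a difference of -3.44 without hippocampal Sox2-GFP replicate C, -5.03 without replicate A, -6.71 within slide 3, -7.11 in the fit with a slide block, -5.33 with a random slide block and -3.60 with the mean of probes. SVZ Sox2-GFP cells were 13.5-fold lower than DCX-DsRed cells (-3.75, SE 0.99), a difference of -2.95 without SVZ replicate A, -4.58 without SVZ replicate B, -4.95 within slide 1, -3.75 within slide 3 and -4.35 with a slide block. The second Lpar1 probe, dimmer and well above background on 1 of 3 hippocampal Sox2-GFP arrays, differed by -2.93 and -3.47 in these comparisons.

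Both receptors moved with the myelin markers, as the plot against marker lists shows. Over the 9 arrays, which fall into groups, the median of the 18 myelinating oligodendrocyte markers correlated with S1pr5 at r = 0.90 and with Lpar1 at r = 0.91, given as a description. The log2 of the summed level of these markers ranged from 5.08 to 6.57 in SVZ Sox2-GFP, from 2.88 to 5.59 in hippocampal Sox2-GFP and from 8.34 to 8.71 in DCX-DsRed cells. Of the 18, 11 fell in hippocampal Sox2-GFP relative to DCX-DsRed cells, among them Mog, a protein of the myelin surface (-5.55, limma adjusted p = 0.021), with a list median of -4.65. Between SVZ Sox2-GFP and DCX-DsRed cells 4 of the 18 fell, with a median of -3.17. Mbp, a main structural protein of myelin, was 1.95, 2.54 and -2.51 on hippocampal Sox2-GFP replicates A, B and C, against 5.05, 5.06 and 5.50 on hippocampal DCX-DsRed A, B and C. Its means were 0.66 ± 2.76 and 5.20 ± 0.26 (SD, n = 3 each), with replicate C low, and it was not called (limma adjusted p = 0.13). All 18 were above background on at least 1 array of each group. The median of 11 oligodendrocyte precursor markers correlated with S1pr5 at r = 0.75 and with Lpar1 at r = 0.79. For 10 markers of newly formed oligodendrocytes these values were 0.11 and 0.48. The part of oligodendrocyte RNA in the S1pr5 and Lpar1 levels was not tested.

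**Figure D2:**
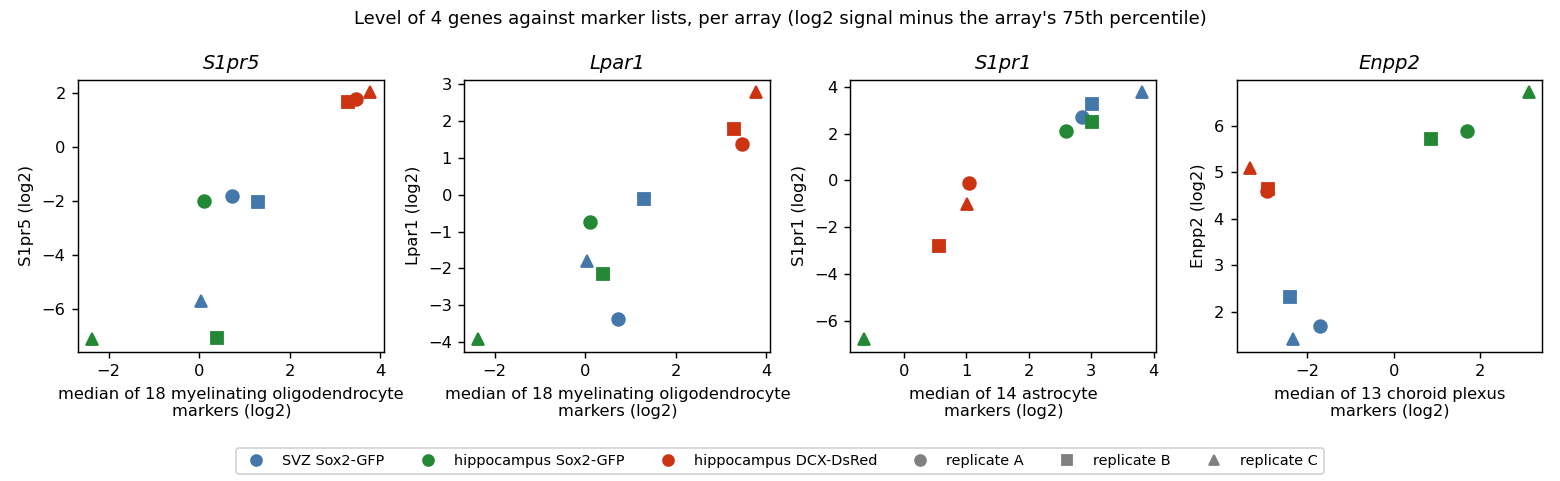
Level of S1pr5 and Lpar1 against the median of 18 myelinating oligodendrocyte markers, of S1pr1 against 14 astrocyte markers and of Enpp2 against 13 choroid plexus markers, 1 point per array (log2 signal minus the array's 75th percentile). The 3 DCX-DsRed arrays sit at the upper right for S1pr5 and Lpar1, and at Enpp2 levels of 4.60 to 5.08 with choroid plexus medians of -2.90 or lower.

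S1pr1, the receptor that directs lymphocyte exit from lymphoid organs, was high in the SVZ group. It was 2.70, 3.27 and 3.77 on SVZ Sox2-GFP replicates A, B and C, 2.10, 2.48 and -6.79 on hippocampal Sox2-GFP replicates A, B and C, and -0.12, -2.78 and -1.02 on hippocampal DCX-DsRed A, B and C. The SVZ arrays lay above all others. Replicate C of hippocampal Sox2-GFP was not well above background and decided that group's mean. Hippocampal Sox2-GFP cells differed from DCX-DsRed cells by 0.57 (SE 2.20) with it and by 3.60 without it. With slide as a block or within slide 3, where that group rests on replicate C, the difference was -5.90 and -5.77. SVZ Sox2-GFP cells were 23.5-fold higher than DCX-DsRed cells (4.55, SE 2.20; 4.15 within slide 1 and 4.54 within slide 3). That fold was 14.1 without DCX-DsRed replicate B and 35.5 without DCX-DsRed replicate A. Against hippocampal Sox2-GFP cells they differed by 3.98 (SE 2.20), by 0.95 without replicate C, by 5.40 without replicate A, by 5.59 without replicate B, by 2.96 with normexp, by 10.31 within slide 3 and by 10.24 in the fit with a slide block. The astrocyte marker list moved with S1pr1, with medians over 14 genes of 2.86, 3.02 and 3.82 in SVZ Sox2-GFP, 2.60, 3.02 and -0.63 in hippocampal Sox2-GFP and 1.04, 0.57 and 1.01 in DCX-DsRed cells. The log2 of its summed level ranged from 6.97 to 8.00, from 5.56 to 7.12 and from 5.16 to 5.60 in these groups, and no marker was below background throughout a group. Its correlation with S1pr1 over the 9 arrays was r = 0.97, and its part in the S1pr1 levels was not tested. The median of mature neuron markers correlated with S1pr1 at r = 0.71 and that of endothelial and mural markers at 0.65, and their part was not tested either.

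S1pr3, a receptor that couples to several G proteins, was -0.91, -2.16 and -1.37 on SVZ Sox2-GFP replicates A, B and C. It was -0.71, -0.16 and -1.16 on hippocampal Sox2-GFP replicates A, B and C, against -1.79, -2.15 and -2.11 on hippocampal DCX-DsRed A, B and C. By this probe, which stands for the gene, the hippocampal groups did not overlap, and the SVZ group overlapped both. Hippocampal Sox2-GFP cells were 2.53-fold higher than DCX-DsRed cells (1.34, SE 0.42), and the second probe differed by 1.48. Between SVZ and hippocampal Sox2-GFP cells the probes disagreed, at -0.80 and 0.13. SVZ Sox2-GFP minus DCX-DsRed was 0.54 (SE 0.42) by the first probe and 1.60 by the second, where these groups did not overlap. Ependymal markers, of the ciliated cells that line the ventricles, moved with S1pr3 at r = 0.92 over the 9 arrays. Their median over 13 genes was -0.36, -2.12 and -0.55 in SVZ Sox2-GFP, 1.12, 1.69 and 1.01 in hippocampal Sox2-GFP and -2.51, -1.96 and -3.09 in DCX-DsRed cells. The log2 of their summed level ranged from 2.47 to 3.89, from 4.91 to 5.53 and from 1.75 to 2.47 in these groups, with 2 markers above background on no DCX-DsRed array, and their part in the S1pr3 levels was not tested. S1pr3 also correlated at r = 0.74 with the median of endothelial and mural markers, at 0.72 with choroid plexus and at 0.64 with meningeal fibroblast markers. The part of those cells was not tested either.

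S1pr2, which signals through several G proteins, averaged -0.73 ± 0.17 in SVZ Sox2-GFP, -1.25 ± 0.63 in hippocampal Sox2-GFP and -0.64 ± 0.36 in DCX-DsRed cells (SD, n = 3 each), and all groups overlapped by the probe that stands for the gene. By another probe, hippocampal Sox2-GFP arrays (-0.93, -0.26 and -1.01) lay above DCX-DsRed arrays (-1.15, -1.24 and -1.79) without overlap. The 3 probes of S1pr2 disagreed in sign between hippocampal Sox2-GFP and DCX-DsRed cells, at -0.61, 0.66 and -1.52, so no direction is given. Sgpl1, the lyase, averaged -1.28 ± 1.17 in SVZ Sox2-GFP, -0.73 ± 0.64 in hippocampal Sox2-GFP and -0.62 ± 1.22 in DCX-DsRed cells (SD, n = 3 each). Its groups overlapped in every comparison, with differences of -0.11 to -0.66 and an SE of 0.77.

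**Figure D3:**
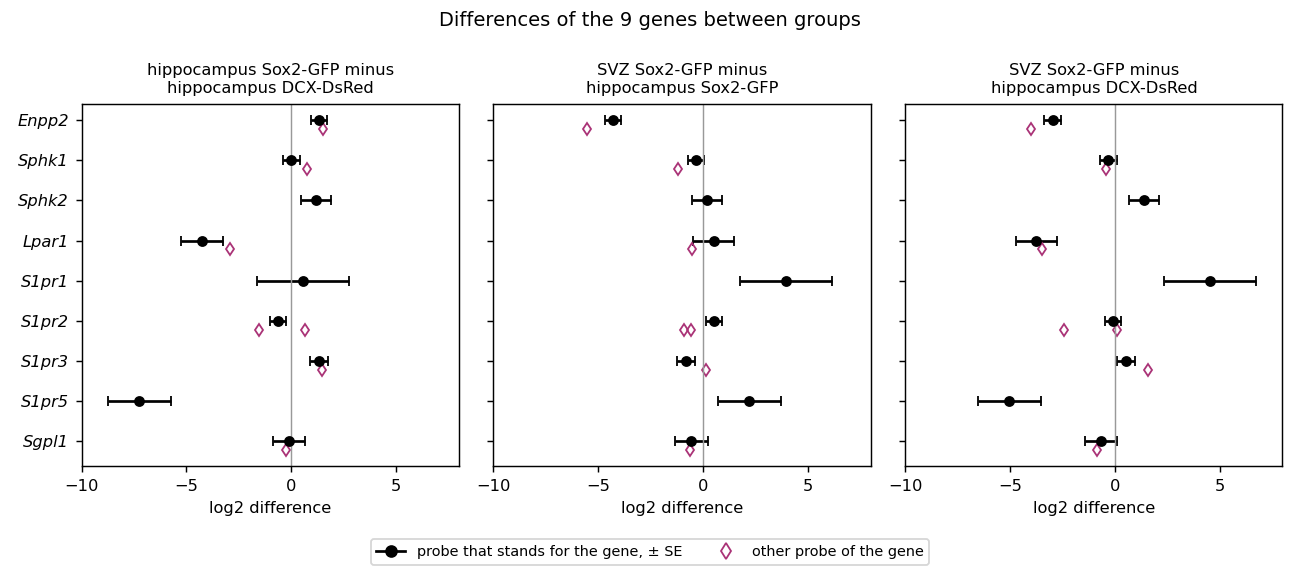
Log2 difference of each of the 9 genes in the 3 comparisons; black points with bars are the probe that stands for the gene ± SE, and open diamonds are the gene's other probes. S1pr5 (-7.25) and Lpar1 (-4.26) stand furthest to the left in the hippocampal comparison, Enpp2 (-4.29) in the comparison of regions, and the probes of S1pr2 lie on both sides of 0.

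Counted together, 1 of the 9 genes was lower and 0 were higher in hippocampal Sox2-GFP than in DCX-DsRed cells at a limma adjusted p under 0.05 over all genes (S1pr5), where 3.19% of all genes were called, 1.76% higher and 1.43% lower. The 793 calls over all genes were 437 higher and 356 lower, and 369 higher and 437 lower when arrays were scaled to their median. Groups did not overlap for 3 of the 9 genes on the higher side and 2 on the lower side, against 11.5% and 13.3% of all genes, or 24.8% in either direction. Between SVZ and hippocampal Sox2-GFP cells 1 gene was lower (Enpp2) and 0 higher, where 0.402% of all genes were called, 0.0442% higher and 0.358% lower. Groups did not overlap for 1 gene in each direction, against 8.86% higher, 8.06% lower and 16.9% in either direction of all genes. Between SVZ Sox2-GFP and DCX-DsRed cells 1 was lower (Enpp2) and 0 higher, where 1.52% of all genes were called, 0.542% higher and 0.98% lower. Groups did not overlap for 1 gene higher and 4 lower, against 10.7% and 10.4% of all genes, or 21.1% in either direction. The median difference of the 9 genes was 0.02, 0.20 and -0.31 in these comparisons, beside -0.08, 0.08 and -0.02 over all genes. Because values of these arrays chose the genes, nothing is read from these counts, and the comparisons share arrays.

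The other genes of the pathway were taken from 6 lists by known role, with 99 of 107 listed genes tested. The lists were drawn up when earlier results of these data were known, so their calls are not an independent test. In hippocampal Sox2-GFP relative to DCX-DsRed cells 3 rose and 4 fell, 3.03% and 4.04% of the 99, and their median difference was 0.07. Of the genes for ceramide conversion, which feeds both sphingosine and the lipids of myelin, Fa2h and Ugt8a fell and 0 of 21 rose. Fa2h, the fatty acid 2-hydroxylase of myelin lipids, was -0.08, 0.01 and -2.37 on hippocampal Sox2-GFP replicates A, B and C, against 3.67, 3.47 and 4.09 on hippocampal DCX-DsRed A, B and C. It was 23.6-fold lower (-4.56, SE 0.62, limma adjusted p = 0.00972), 13.7-fold lower without replicate C, 72.8-fold lower with a slide block, and called under all 22 alternatives run. Ugt8a, which makes galactosylceramide, was 10.9-fold lower (-3.44, SE 0.67, limma adjusted p = 0.035), called under 14 of 22 alternatives. It was 29.9-fold lower with the mean of its probes, 35.1-fold lower with a slide block, 16.8-fold lower with a random slide block and 7.61-fold lower without replicate C. Both genes stand in the myelinating oligodendrocyte list as well.

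In ceramide synthesis 1 of 15 tested genes fell, Cers2, the synthase of very long chain ceramides. It was -0.28, -0.08 and 0.92 on hippocampal Sox2-GFP replicates A, B and C, against 2.15, 1.87 and 2.24 on hippocampal DCX-DsRed A, B and C, without overlap. The difference was -1.90 (SE 0.39, limma adjusted p = 0.04), called under 9 of 22 alternatives with adjusted p between 0.0171 and 0.156, and -1.10 with a slide block. Of 21 tested G protein subunits and effectors, 2 rose and 1 fell. Gna12, a G protein alpha subunit, was 7.21-fold lower (-2.85, SE 0.51, limma adjusted p = 0.0267), and called under 16 of 22 alternatives. It was 4.9-fold lower without hippocampal Sox2-GFP replicate C and 16.5-fold lower with a slide block, which rests on that replicate. Yap1, a transcriptional coactivator that LPA and S1P receptors can switch on, was 13.6-fold higher (3.76, SE 0.77, limma adjusted p = 0.0412, called under 12 of 22 alternatives). With a slide block Yap1 was 14.6-fold higher. Ccn1, a secreted matrix protein and YAP target, was 7.69-fold higher (2.94, SE 0.49, limma adjusted p = 0.0204, called under 16 of 22 alternatives). With a slide block Ccn1 was 6.45-fold higher.

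Of 26 tested genes of the autotaxin family and LPA turnover, 1 rose and 0 fell. Plppr4, a membrane protein related to the lipid phosphate phosphatases and known from synapses, was 0.09, -0.03 and 2.12 on hippocampal Sox2-GFP replicates A, B and C. On hippocampal DCX-DsRed A, B and C it was -6.04, -5.16 and -7.33, with 1 array well above background. The difference was 6.90 (SE 0.87, limma adjusted p = 0.00717), called under all 21 alternatives that kept the gene, with differences of 4.43 to 9.5. None of the 9 other lysophospholipid receptors and none of the 8 tested genes of S1P breakdown and transport was called. Their smallest p-values belonged to the LPA receptor Lpar6 (-1.04, limma adjusted p = 0.354) and the S1P carrier Apom (0.55, limma adjusted p = 0.62).

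Between SVZ Sox2-GFP and DCX-DsRed cells 2 of the 99 fell and 0 rose. Cers2 was -0.35, -0.76 and -0.80 on SVZ Sox2-GFP replicates A, B and C and 6.62-fold lower than in DCX-DsRed cells (-2.73, SE 0.39, limma adjusted p = 0.0177; 16 of 22 alternatives). Fa2h was 0.54, 0.43 and 0.04 on those arrays and 10.6-fold lower (-3.41, SE 0.62, limma adjusted p = 0.0402; 13 of 22 alternatives). The genes with the smallest p in lists without a call were Ccn1 (2.35, limma adjusted p = 0.0633), the lipase Lipg (1.91, limma adjusted p = 0.106), the S1P phosphatase Sgpp2 (2.38, limma adjusted p = 0.346) and Lpar3 (0.56, limma adjusted p = 0.502). Between SVZ and hippocampal Sox2-GFP cells limma called 0 of the 99, with up to 11 under the alternatives and 2686 of all 24890 genes at an unadjusted p under 0.05. The smallest p there was that of Plppr4 (-5.33, SE 0.87, limma adjusted p = 0.0542). Within the other lists, each taken alone, the smallest p belonged to the ceramidase Asah2 (-3.49, limma adjusted p = 0.148), Yap1 (-2.67, limma adjusted p = 0.262), Ormdl2 (-1.71, limma adjusted p = 0.263), Lpar6 (1.15, limma adjusted p = 0.469) and the lipid transporter Mfsd2a (1.21, limma adjusted p = 0.599).

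**Figure D4:**
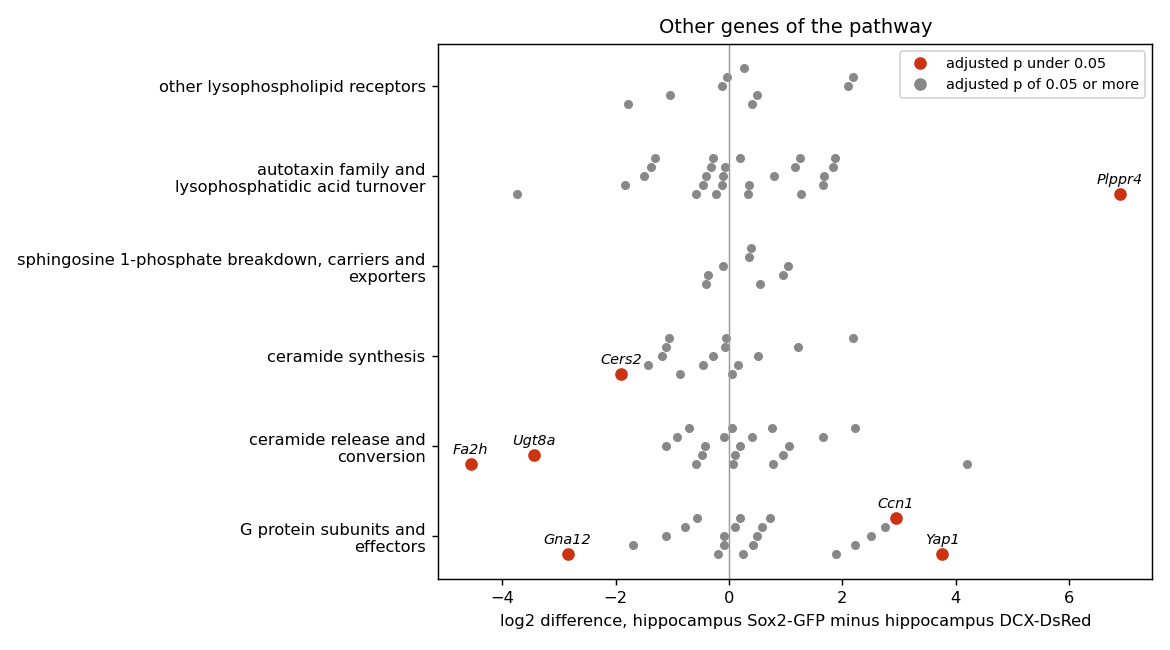
Log2 difference of the tested pathway genes between hippocampal Sox2-GFP and hippocampal DCX-DsRed cells, 1 point per gene, by list; red points have a limma adjusted p under 0.05 over all genes. Plppr4, Yap1 and Ccn1 lie to the right of 0, and Fa2h, Ugt8a, Gna12 and Cers2 to the left.

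The genes most like each of the 9 were named by Pearson's r over the 9 arrays among 5633 genes with an SD of at least 1, as a description of arrays that fall into groups. For S1pr5 they were Arhgap23 (r = 0.976), Plekhh1 (0.968), Tubb4a (0.956), Speer4f1 (0.955) and Egf (0.953). For Lpar1 they were Zfp536 (r = 0.972), Schip1 (0.969), Amz1 (0.968), Cpd (0.967) and Glrb (0.967). S1pr1 was followed most closely by the astrocyte markers Ntsr2 (r = 0.990) and Gja1 (0.979), then Ctnnd2 (0.977), Tprkb (0.976) and Krtcap2 (0.975), and Ntsr2 kept r = 0.980 without hippocampal Sox2-GFP replicate C. Nearest to S1pr3 were Hspb11 (r = 0.967), Pltp (0.945), Olfr881 (0.943) and the ependymal markers Spag6l (0.942) and Ak7 (0.942). Enpp2 was matched by Cd59b (r = 0.965), Prps2 (0.939), Ndufc1 (0.935), Dstn (0.932) and Deptor (0.931). The closest gene to S1pr2 was Arl8b (r = 0.929, and 0.788 without hippocampal Sox2-GFP replicate C), to Sphk1 Unc93a (0.901), to Sphk2 Banf1 (0.926) and to Sgpl1 Tas2r135 (0.934).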

How the data were processed

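Gene expression was measured on 9 Agilent arrays, 3 per group, with groups and replicate letters taken from the sample titles. Per the file headers, the authors deposited scanner output of Agilent Feature Extraction 9.5.1.1, whose processed signal intensity had a spatial background surface subtracted and had no normalization across arrays. Per the file headers, other deposited columns flag each spot as an outlier or as well above background (0 or 1). limma is named, without a version, in the submitters' processing notes. A spreadsheet program had re-saved the DCX-DsRed A file, so gene names came from another file of the same design. Probes were named by accession (23082) or older symbol (3073) through a RefSeq gene table (GRCm38.p6), and 15019 kept the file's name. The build of the probe coordinates is not given in the sources used here.

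Flagged spots were dropped, spots of a probe averaged, and log2 of the processed signal taken minus the array's 75th percentile over non-control probes. Of 41174 probes, 464 without an unflagged spot were dropped. A probe was kept if well above background on 3 or more of the 9 arrays, and the brightest probe stood for its gene. Differences were fitted with limma 3.58.1 (lmFit, eBayes) in R 4.3.3 to the 9 arrays together, which leaves 6 residual degrees of freedom. P-values were adjusted by Benjamini-Hochberg over 24890 genes (threshold 0.05), after the fit was tested on simulated data. The number of arrays limits the precision. Slide 1 held DCX-DsRed A and B and SVZ A, slide 2 hippocampal Sox2-GFP A and B, and slide 3 the other 4 arrays. Alternatives changed background correction, scaling, filters, probes, slide, replicate block, arrays in the fit and single replicates.

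The members and gene lists were chosen with earlier results of these data known. Named genes are the 9 members, Sox2 and Dcx, up to 4 called genes per pathway list and comparison or the gene of smallest p, the first genes of marker lists, and the 5 genes of highest r to a member. Promoter letters were matched in 250-base RefSeq windows. The first search used 3 forms, and a further form was added after it had been seen in the S1pr5 window.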

Additional observations from a re-analysis of the deposited data

How the results depend on the processing

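Of 624 differences of the 9 genes under the alternatives, 600 stayed within 1 SD of the reported value and 588 kept their sign. That SD is the gene's own in the 2 groups compared, so a gene with widely spread replicates passes easily. For S1pr1 in hippocampal Sox2-GFP minus DCX-DsRed, 20 of 22 passed, with differences from -5.9 to 3.6. Some alternatives, such as the replicate block or leaving out an array outside the comparison, cannot change a difference. The tally is therefore no measure of stability. The 3 numbers that follow a setting are genes called in hippocampal Sox2-GFP minus DCX-DsRed, SVZ minus hippocampal Sox2-GFP and SVZ Sox2-GFP minus DCX-DsRed cells, reported as 793, 100 and 379. With slide as a block they were 2037, 2152 and 795, where hippocampal Sox2-GFP rests on replicate C, and the hippocampal calls were then 747 higher and 1290 lower. With the replicate letter as a block they were 485, 13 and 186. Correlations of same-letter deviations were -0.044 to 0.115, so the letters give no pairing. SVZ minus hippocampal Sox2-GFP gave 162 with normexp, 50 with probes above background on all arrays, 173 with the mean of probes and 8 with only the 2 groups compared, and a random slide block gave 837 in SVZ Sox2-GFP minus DCX-DsRed. Leaving out single replicates gave 248 (without DCX-DsRed A) to 783, 35 to 102 and 49 (without DCX-DsRed A) to 852 (without hippocampal Sox2-GFP C). Pathway genes called, reported as 7, 0 and 2, ranged from 2 to 6, 0 to 0 and 0 to 4 without single replicates. The replicate block gave 3 in the hippocampal comparison and 0 in SVZ Sox2-GFP minus DCX-DsRed, where the mean of probes and the random slide block gave 4. SVZ minus hippocampal Sox2-GFP gave 1 with normexp, quantile normalization, the percentile of detected probes or the random slide block, 2 with the mean of probes and 11 with slide as a block. The cause of these changes was not tested. Signals near background limit the size of the S1pr5 differences and of S1pr1 on hippocampal Sox2-GFP replicate C.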
